A study of Mus musculus with 8 samples.

Results

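Mitochondrial ribosomal proteins are the nuclear-encoded proteins that, together with rRNAs of the organelle, build the ribosome inside mitochondria. Here they were taken as every gene whose symbol on the array began with Mrpl or Mrps followed by a digit, large (Mrpl) and small (Mrps) subunit apart. The rule found 77 genes of the 36693 symbols on the array, 48 of the large and 29 of the small subunit, measured by 119 of its 56605 probes. The study silenced Pvt1, a long non-coding RNA, in proliferating C2C12 cells, an established line of mouse myoblasts, and the comparison asks which of these genes then changed. Total RNA came from 4 cultures transfected with antisense LNA GapmeRs against Pvt1 and from 4 mock cultures that received negative control GapmeRs. Every culture was at passage 10 and had been given Lipofectamine 2000. GapmeRs are short antisense oligonucleotides that lead RNase H to cut the RNA they pair with. The labels call the cultures biological replicates without saying how they were kept apart, so the p-values measure the spread between these cultures. C2C12 is 1 immortal line, and the 8 cultures do not stand for different animals.

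All 8 one-colour arrays lay on 1 slide. Spots positive and significant over background made up between 58.8% and 62.5% of spots on control arrays and 60.1%, 59.8%, 61.0% and 51.6% on silenced arrays 1 to 4, so silenced array 4 stood apart. The brightest probe of Pvt1 fell from 9.86 ± 0.30 to 7.0 ± 0.63 on the log2 scale (SD, n = 4), which left 13.8% of the control signal (limma adjusted p = 0.000682). Of 10 myoblast markers, 9 were well above background on every array, while Myf5 was not on any, and their summed signal ran from 115506 to 136510 in controls and from 81442 to 103743 in silenced cells. Signal of genes abundant in liver was present too. Among 20 such genes, 3 were well above background on all control arrays and 8 on all silenced arrays, with sums of 1374 to 2183 and 5652 to 6935. The sums of 4 macrophage genes were 1726 to 1830 and 3859 to 6693, those of 6 genes of differentiated muscle 3237 to 4295 and 1363 to 1877, those of 4 adipocyte genes 160 to 292 and 304 to 559, and those of 4 endothelial genes, none above background, 68.0 to 95.3 and 67.2 to 99.5. Members of a list did not all go one way. Among the macrophage genes the mean log2 signal went from 9.76 to 11.23 for Ptprc and from 9.33 to 11.40 for Cd68, but from 7.85 to 7.05 for Csf1r, and Adgre1 was not well above background on any array. Among the muscle genes it went from 11.25 to 9.60 for Acta1 but from 7.31 to 7.76 for Myog. These lists are whole-array facts, and their part in the results below was not tested. In bulk RNA, fewer cells of a type and less RNA per cell cannot be told apart.

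The mitochondrial ribosome makes the few proteins that mitochondrial DNA still encodes, all of them core subunits of the respiratory chain and ATP synthase. Its small subunit binds the mRNA and reads the codons, and its large subunit joins the amino acids and feeds the new chain into the inner membrane. Both are richer in protein than the cytosolic ribosome, and every one of these proteins is imported from the cytosol, so their genes lie scattered over the nuclear genome, here over 17 chromosomes. Names follow history and not always place: Mrps30 and Mrps18a, counted here with the small subunit by their names, are part of the large one, and Mrps36 is now held to be a subunit of a citric acid cycle enzyme.

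Some members had in common, beyond what the rule used, short motifs around the start of the gene. RefSeq promoters (build GRCm38.p6, 250 bases before to 50 bases after the start) could be matched to 68 of the 77 genes. The motif of nuclear respiratory factor 1 (NRF1), a known activator of nuclear genes for mitochondrial proteins, searched with any base in its sixth place (the fifth where it reads on the other strand), stood in the promoter of 13 of 68 members (19.1%) and of 5.19% of 27025 genes in the table. The ETS motif CCGGAAGT, which GABP (also called NRF2) binds, stood in 12 members (17.6%) and in 4.31% of all genes. The longer of the YY1 motifs searched stood in 5 members (7.35%) and in 0.755% of all genes, and the shorter AAATGGCGG in 1 member (1.47%) and in 0.389%. The E-box CACGTG, which Myc and USF proteins bind, was the exception when genes were counted, with 5 members (7.35%) against 8.09% of all genes. Counted by promoter it stood in 7 of 74 (9.46%) against 7.15% of all promoters, so its direction depended on the unit. Both strands were searched, and no motif was counted as a bound site. Together 24 of the 68 members held an NRF1 or an ETS match, and 1 of them, Mrps26, held both.

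The windows below show these matches in the 3 members with an NRF1 match that passed the test described further on, and in Mrps26. Each runs 5′ to 3′ on the strand of the gene, with the match in capitals. In Mrpl12 it reads as the motif on the other strand and starts 81 bases before the start of the gene (chr11:120484516-120484605), in Mrpl44 35 bases before it (chr1:79775943-79776032) and in Mrpl9 28 bases before it (chr3:94443268-94443357). In Mrps26 (chr2:130563702-130563786) the first capitals are an ETS match on the other strand, 15 bases before the start, and the second are the NRF1 match, 2 bases before it. All 4 lie on the plus strand of build GRCm38.p6.
Mrpl12: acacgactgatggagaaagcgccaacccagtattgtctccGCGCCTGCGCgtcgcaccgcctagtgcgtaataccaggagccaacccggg
Mrpl44: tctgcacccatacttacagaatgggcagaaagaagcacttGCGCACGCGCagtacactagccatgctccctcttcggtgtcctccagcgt
Mrpl9: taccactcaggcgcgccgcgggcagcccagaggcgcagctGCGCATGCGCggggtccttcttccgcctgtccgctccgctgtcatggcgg
Mrps26: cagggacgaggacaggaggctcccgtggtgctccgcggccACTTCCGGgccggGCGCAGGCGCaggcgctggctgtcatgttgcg

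The genes were readily measured in myoblasts. Of 119 probes, 110 had at least 3 of 4 values in each group and were tested, and 103 of these were well above background on all 8 arrays. They stood for 76 genes, 47 large and 29 small. The exception was Mrpl35, whose single probe carried no flag for signal well above background on any of the 8 arrays. The other 8 untested probes belonged to genes with another, tested probe. No member spot was saturated. The highest signals were those of the probes for Mrpl33, Mrpl12 and Mrps6, the last a protein of the small subunit. The lowest among tested genes were those for Mrpl50, Mrps11 and Mrpl44. Probes differ in how well they hybridise, so this order describes probes and not amounts of mRNA. Of the 6, Mrpl12 and Mrpl44 passed the test. The log2 signal of Mrpl33 was 14.89 ± 0.23 in controls and 15.26 ± 0.30 in silenced cells, that of Mrps6 14.85 ± 0.20 and 14.55 ± 0.18, that of Mrpl50 9.49 ± 0.49 and 9.43 ± 0.45, and that of Mrps11 10.38 ± 0.12 and 10.22 ± 0.16 (SD, n = 4).

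With the arrays quantile normalized, few mitochondrial ribosomal protein genes passed the test after Pvt1 silencing. How many did, and whether their share lay below or above that of all genes, depended on the scaling, as described further on. A gene was represented by its tested probe with the highest mean, and called where limma's adjusted p, over all 28649 probes tested, was under 0.05. Of 76 genes, 7 were called (9.21%), while 20.0% of the 19284 genes tested on the array were. In the large subunit 2 genes rose (Mrpl44 and Mrpl55) and 4 fell (Mrpl9, Mrpl10, Mrpl12 and Mrpl28), and in the small subunit none rose and 1 fell (Mrps5). Of all genes, 6.02% rose and 14.0% fell. At an unadjusted p under 0.05, 16 members (21.1%) and 33.1% of all genes passed. The groups did not overlap for 4 members that were higher and 11 that were lower in silenced cells, while 7.12% and 18.9% of all genes did so. The change was smaller than 0.5 on the log2 scale for 61 of the 76 members (80.3%) and for 55.6% of all genes. With 1 array left out at a time, between 1 and 14 members were called. The lowest count came without control array 2 or 4 (10.5% and 10.4% of all genes called) or silenced array 3 (14.2%). The highest, 10 higher and 4 lower, was that without silenced array 4 (28.1%).

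The changes of the members lay closer together than those of all genes. Their quartiles were -0.21 and 0.25 with a median of 0.06, against -0.55 and 0.32 with a median of -0.09 for all genes. The median change was 0.11 in the large and 0.05 in the small subunit. Of the 76 members, 52 lay above the median of all genes. The median standard error was also lower, 0.21 for members against 0.27 for all genes. The spread was not compared at equal signal and was not tested.

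**Figure D1:**
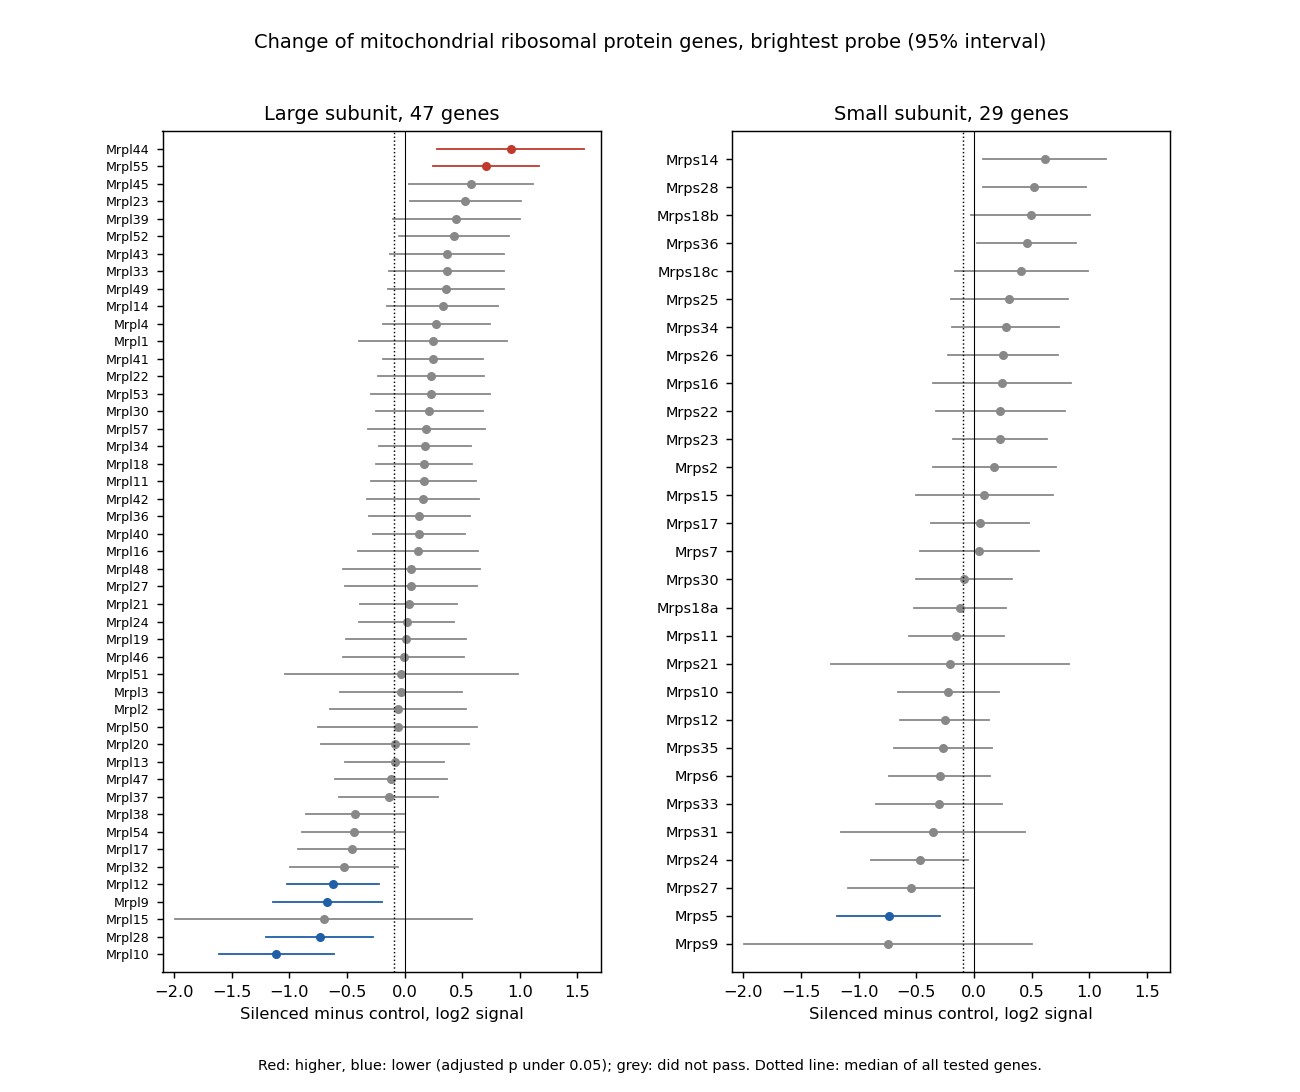
Change in log2 signal (silenced minus control, horizontal axis) of the brightest probe of every tested gene, large subunit left and small subunit right, with 95% intervals from the limma fit. Most of the 76 intervals include 0, the 2 genes in red and the 5 in blue passed the test, and the dotted line is the median of all genes, -0.09.

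Mrpl10 had the largest fall of the 5 called genes that were lower, and Mrpl12 the smallest. In the stalk of the large subunit Mrpl10 is the anchor and Mrpl12 forms the flexible arms, which call in the translation factors. The Mrpl10 probe (chromosome 11, 96910057 to 96910116, mm9) had log2 signals of 12.03, 12.15, 12.53 and 12.36 in controls and of 11.35, 11.49, 10.86 and 10.93 in silenced cells. Every silenced culture lay below every control. The change was -1.11 (SE 0.22, 95% interval -1.61 to -0.61, limma adjusted p = 0.00756), a fall of 2.16-fold.

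Mrpl12 had one of the brightest member probes (chromosome 11, 120349740 to 120349799). Its log2 signals were 15.17, 15.31, 15.16 and 15.36 in controls and 14.68, 14.72, 14.69 and 14.42 in silenced cells. The groups did not overlap, and silenced culture 4 lay below the rest of its group. The change was -0.62 (SE 0.18, limma adjusted p = 0.0332). Mrpl11, at the base of the same stalk and named here after its value was seen, changed by 0.16 (SE 0.21) with an interval of -0.29 to 0.62, which did not pass (limma adjusted p = 0.61).

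The other 3 genes that fell are structural proteins. Mrpl28, of the large subunit (chromosome 17, 26261526 to 26261585), had log2 signals of 11.96, 12.16, 12.17 and 12.23 in controls and 11.46, 11.78, 11.12 and 11.22 in silenced cells. Its groups did not overlap, and it fell by 0.74 (SE 0.21, limma adjusted p = 0.0306). Mrpl9, also of the large subunit (chromosome 3, 94252370 to 94252429), had 12.55, 12.79, 13.14 and 12.71 in controls and 12.27, 12.33, 12.05 and 11.86 in silenced cells. It changed by -0.67 (SE 0.21, limma adjusted p = 0.0456), with no overlap. The other Mrpl9 probe in the same mRNA, 815 bases nearer the 5′ end, fell by 0.89 (limma adjusted p = 0.0203). The remaining Mrpl9 probe, to another transcript record, changed by -0.47 (SE 0.47) and did not pass (limma adjusted p = 0.509).

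Mrps5 was the 1 called gene of the small subunit, where its protein sits near the site at which mRNA enters. Its probe (chromosome 2, 127429365 to 127429424) had log2 signals of 11.93, 12.09, 12.38 and 12.21 in controls and of 11.61, 11.53, 11.14 and 11.36 in silenced cells. No silenced value reached a control value. The change was -0.74 (SE 0.20, limma adjusted p = 0.025). A dimmer Mrps5 probe, 933 bases nearer the 5′ end, changed by 0.03 (SE 0.35, limma adjusted p = 0.957), and the gap between both did not pass its own test (limma adjusted p = 0.155).

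The genes that rose encode proteins of the large subunit. Mrpl44 carries a fold related to RNase III. Its probe (chromosome 1, 79777892 to 79777951) had log2 signals of 10.06, 10.10, 9.47 and 10.14 in controls and 11.11, 10.88, 11.29 and 10.16 in silenced cells. The groups did not overlap, but silenced culture 4 lay only just above the highest control. The change was 0.92 (SE 0.28, limma adjusted p = 0.0428). The dim second Mrpl44 probe changed by 1.16 with an SE of 0.76 and did not pass (limma adjusted p = 0.305). Mrpl55 (chromosome 11, 59019307 to 59019366) had 12.45, 12.43, 12.67 and 12.58 in controls and 13.30, 13.30, 13.53 and 12.84 in silenced cells. Every silenced value was above every control value, with a change of 0.71 (SE 0.21, limma adjusted p = 0.0348).

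The arrays lay in an upper row (controls 1 to 3 and silenced 1) and a lower row (control 4 and silenced 2 to 4) of the slide. The direction of all 7 changes was the same within each row, for example -0.89 in the upper and -1.27 in the lower row for Mrpl10, 1.24 and 0.63 for Mrpl44, and 0.78 and 0.64 for Mrpl55. With the row as a block only Mrpl10 was called (limma adjusted p = 0.0459, change -1.08), where 8.39% of all genes were. The other 6 had adjusted p-values between 0.114 and 0.194 and changes between -0.75 and 0.94. Mrpl10 was also the 1 gene called with any array left out, at adjusted p-values from 0.0099 to 0.0332. Mrps5 lost its call without control 2, control 4 or silenced 3. Mrpl28 kept it only without control 3, silenced 2 or silenced 4, Mrpl12 and Mrpl55 only without control 3 or silenced 4, Mrpl44 only without silenced 4, and Mrpl9 under none of the 8 (adjusted p from 0.0507 to 0.118).

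**Figure D2:**
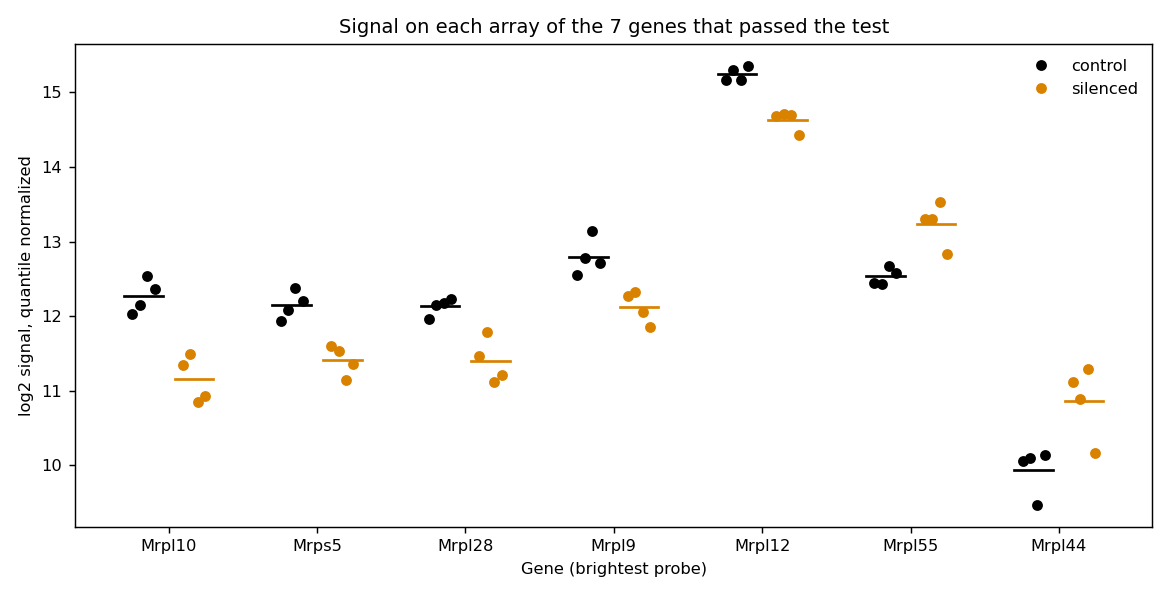
Quantile normalized log2 signal (vertical axis) on each of the 4 control (black) and 4 silenced (orange) arrays for the brightest probe of the 7 called genes, points in the order of replicates 1 to 4 and a line at the mean of each group. The groups do not overlap in any of the 7, and levels are not comparable between genes, because each has its own probe.

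How many members were called depended strongly on how the arrays were scaled to each other. Quantile normalization after masking gave 2 higher and 5 lower. Cyclic loess gave 25 higher and 6 lower (40.8% of members and 36.5% of all genes called). A shift of each array to its 75th percentile gave 38 and 1 (51.3% and 40.5%). The value table of the authors gave 28 and 6 of 77 genes (44.2% and 20.6%), and no masking of dim spots 27 and 4 of 77 (40.3% and 17.6%). Normexp background correction gave 5 and 6 (14.5% and 22.1%). Members were thus called less often than all genes as reported and with normexp, but more often under the other scalings. The median of all genes moved with the scaling, from -0.09 as reported to 0.11 under cyclic loess and 0.29 under the percentile shift. It was 0.01 in the authors' table and without masking, and -0.05 with normexp. Of all called genes, 70.0% were lower as reported, 39.2% under cyclic loess and 26.3% under the percentile shift. The median change of the members was 0.06 as reported, 0.27 under cyclic loess, 0.59 under the percentile shift, 0.22 in the authors' table and without masking, and 0.07 with normexp. Set against all genes, the median member was higher by 0.15 as reported and by 0.12 to 0.30 under the 5 other scalings.

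The calls of single genes differed between the 6 scalings. Mrpl44 and Mrpl55 were higher and Mrpl10 was lower with a call under each of the 6. Mrpl12 and Mrpl9 were called lower under 5, and Mrpl28 and Mrps5 under 4. Under the percentile shift, which moved all genes up, these 4 were not called, with changes of -0.05 for Mrpl12, -0.22 for Mrpl9, -0.34 for Mrpl28 and -0.35 for Mrps5 on the log2 scale (limma adjusted p from 0.159 to 0.763). Set against the median of all genes under each scaling, they lay at -0.34, -0.51, -0.63 and -0.64 there and at -0.53, -0.58, -0.64 and -0.65 as reported. Without masking Mrpl28 and Mrps5 were at -0.56 and -0.57 (limma adjusted p = 0.0600 and 0.0732). Another member, Mrpl32, was called lower under 4 but not as reported, where it changed by -0.53 (limma adjusted p = 0.0977). Mrpl23, Mrps28 and Mrps36 were called higher under 5 of the 6, the exception being the scaling used here, with changes of 0.53, 0.52 and 0.46 (limma adjusted p = 0.107, 0.0887 and 0.115). These 4 were named after their values were seen.

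**Figure D3:**
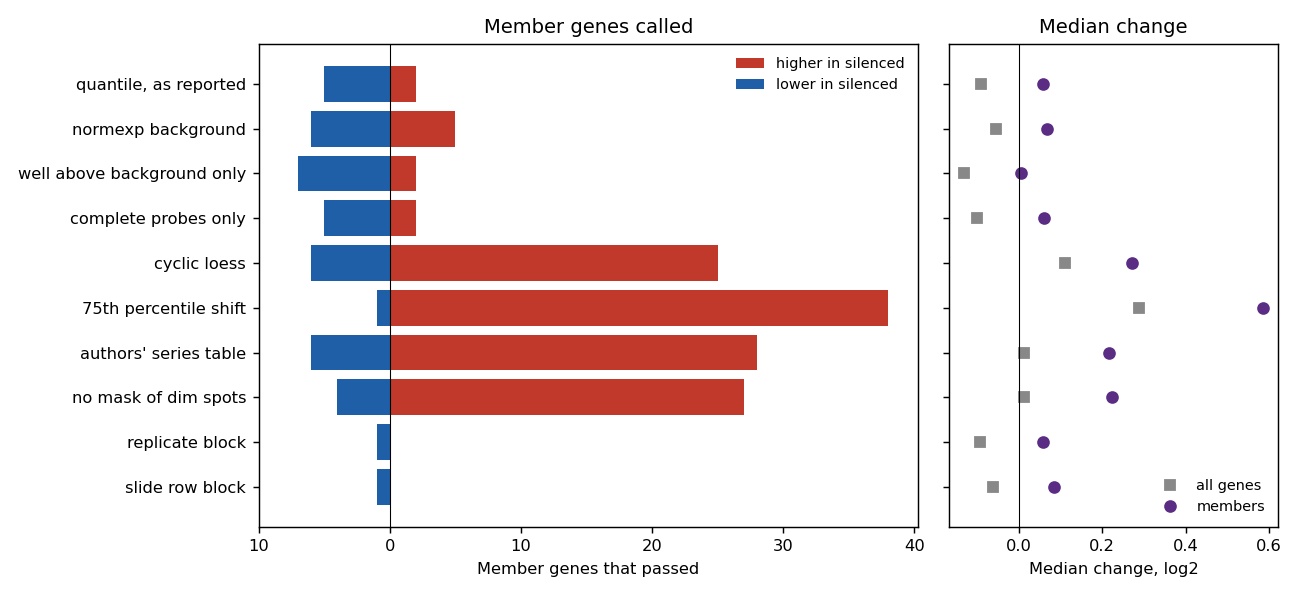
Left, number of member genes called higher (red, to the right) or lower (blue, to the left) in silenced cells under 10 ways of processing the arrays; right, median change on the log2 scale of all genes (grey squares) and of members (purple circles). The count of higher calls runs from 0 to 38, while the member median lies above the median of all genes in each of the 10.

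The same can be read from each array. For each gene the deviation from its mean over the 8 arrays was taken, and the median over members was set beside the median over all genes. The difference was -0.07, -0.09, -0.05 and -0.09 on control arrays 1 to 4 and 0.05, 0.03, 0.15 and 0.27 on silenced arrays 1 to 4. All silenced arrays lay above all control arrays, with silenced array 4 the highest. On that array the median of all genes was -0.55 and that of members -0.28, so the members lay less far below their means there. The large subunit lay at 0.07, 0.04, 0.15 and 0.28 and the small subunit at 0.04, 0.01, 0.17 and 0.23 above all genes on the silenced arrays.

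**Figure D4:**
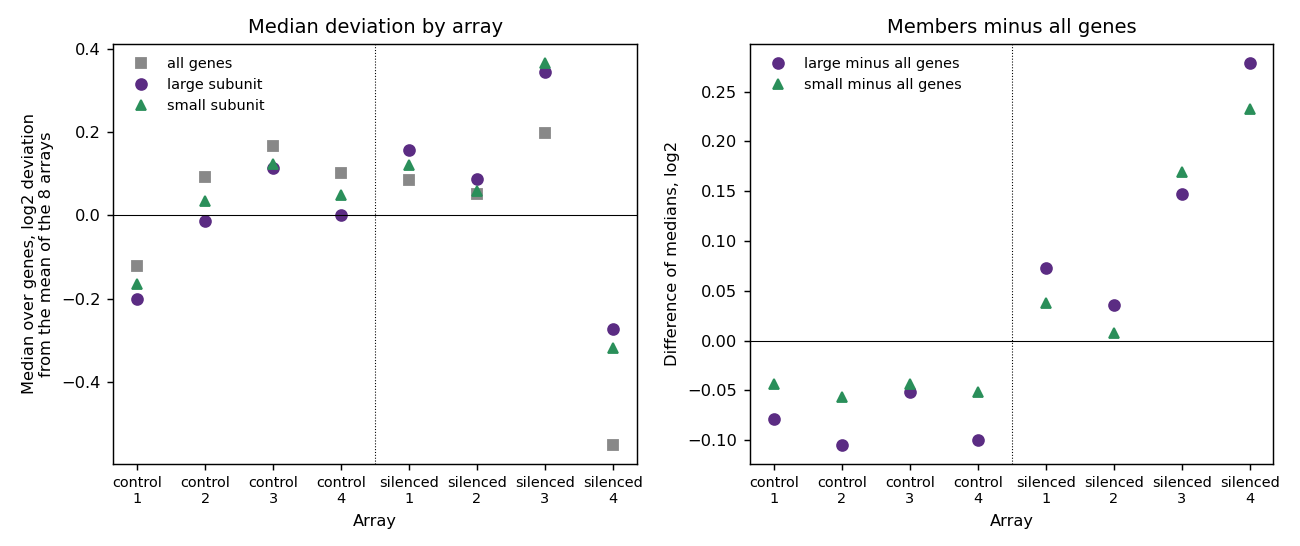
Left, median log2 deviation of each array from the mean of the 8 arrays, for all genes (grey), large (purple) and small (green) subunit genes; right, the same for each subunit minus all genes. Silenced array 4 has the lowest medians on the left, -0.55 for all genes, and the highest differences on the right, 0.28 and 0.23.

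Where a gene had more than 1 probe, the probes did not always agree, in members or over the array as a whole. Of the 34 tested member probes that did not stand for their gene, 8 were called, and all 8 were lower in silenced cells. Over all tested probes of the array 18.4% were lower and 4.79% higher. With these, 13 of the 76 genes (17.1%) had a called probe, against 29.6% of all genes counted the same way. For Mrpl38, Mrpl48, Mrps2, Mrps7, Mrps15 and Mrps18a the brightest probe did not pass and another one fell. This was tested on each array as the gap between the brightest and each other probe of a gene, so that a shift of a whole array cancels out. Of 34 member pairs 10 changed their gap, a smaller share than the 38.3% of 9146 pairs of all genes that did (limma, adjusted over all pairs). The count was 9 to 12 under the 5 other scalings and 6 without control array 1 or control array 4. These counts were not set beside the share of all pairs in the same fits, so they describe members alone. The pairs of Mrpl38, Mrpl48, Mrps2, Mrps7, Mrps15 and Mrps18a passed with each of the 8 arrays left out in turn. In 9 of the 10 the probe nearer the 5′ end was the lower one in silenced cells relative to its partner, as in 78.9% of the changed pairs of all genes.

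Limited to pairs with both probes in 1 RefSeq mRNA, 7 of 19 member pairs changed, all with the 5′ probe lower, where 43.3% of the pairs of all genes changed, 90.6% of these with the 5′ probe lower. They belonged to Mrpl10, Mrpl22, Mrpl38, Mrps2, Mrps7, Mrps22 and Mrps33. The 5′ probe was lower, called or not, in 14 of the 19 pairs and in 80.2% of 4412 pairs of all genes. The median change of the gap was 0.36 for the 19 and 0.58 for all genes.

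The 4 largest of these gaps are shown with a stretch of 30 bases of each probe, 5′ to 3′ as printed on the array, to show how far apart in one mRNA the paired probes sit. Capitals mark the letters of a polyadenylation signal (AATAAA) where the stretch holds them, which need not be a signal in use. In Mrps2 (chromosome 2) the probes start at bases 1107 and 1990 of the mRNA, in Mrpl38 (chromosome 11) at 626 and 1214, in Mrps7 (chromosome 11) at 554 and 994, and in Mrpl10 (chromosome 11) at 923 and 1211.
Mrps2 5′ probe: ggcctctggcatccattaagacttgaacat
Mrps2 3′ probe: gattgtattacatcaggaaacttttccaga
Mrpl38 5′ probe: tgatcccggtgtatcatggcaatgaagtga
Mrpl38 3′ probe: actgagagactcagtacattcatctccgag
Mrps7 5′ probe: gagtgccgagagAATAAAccgcggcggaca
Mrps7 3′ probe: AATAAAtgttgagctcctgctgtcctgttg
Mrpl10 5′ probe: cttggggacaggcctcttgatgatacagag
Mrpl10 3′ probe: ctacagacacagatgccagctcctttagtc

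Mrps2 encodes a protein of the small subunit. Its gap, 3′ minus 5′ probe on the log2 scale, was 1.83, 1.43, 2.89 and 1.72 in controls and 3.29, 3.08, 4.01 and 3.42 in silenced cells. The gap widened in each silenced culture beyond every control, by 1.48 (SE 0.34, limma adjusted p = 0.0098). The 5′ probe fell by 1.30 (limma adjusted p = 0.013), while the 3′ probe changed by 0.18 (limma adjusted p = 0.64).

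Mrpl38 encodes a large subunit protein in the central protuberance. Its gap was 0.82, 0.75, 1.06 and 0.67 in controls and 1.98, 1.88, 2.27 and 2.11 in silenced cells, a change of 1.24 (SE 0.17, limma adjusted p = 0.00118). The 5′ probe, whose bases span an intron of the gene, fell by 1.67 and the 3′ probe changed by -0.43 (limma adjusted p = 0.00174 and 0.134). The sets of 4 gaps did not overlap.

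Mrps7, a protein that binds the rRNA of the small subunit head, had gaps of 0.73, 0.88, 0.80 and 0.77 in controls and 2.01, 1.60, 2.57 and 1.53 in silenced cells. The control gaps were tight and the silenced ones spread. The gap widened by 1.13 (SE 0.24, limma adjusted p = 0.00713), with the 5′ probe, which fell by 1.09 (limma adjusted p = 0.00743), set against a 3′ probe that changed by 0.05 (limma adjusted p = 0.913). Both Mrps7 probes hold the letters of a polyadenylation signal.

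In Mrpl10 both probes fell, the 5′ one by 1.93 and the 3′ one by 1.11 (limma adjusted p = 0.00286 and 0.00756), and the gap widened by 0.82 (SE 0.25, limma adjusted p = 0.0303). Its gap on silenced array 4, 1.82, was well above the 0.80 to 1.10 on the other silenced arrays. The gap changed by 0.57 in Mrpl22 (large subunit, limma adjusted p = 0.0257), by 0.69 in Mrps22 (small subunit, limma adjusted p = 0.0254) and by 0.79 in Mrps33 (small subunit, limma adjusted p = 0.0191). The gaps of all 4 genes missed the threshold without control array 1 or 4, those of Mrpl10, Mrpl22 and Mrps22 also without control array 2, and those of Mrpl10, Mrpl22 and Mrps33 also without silenced array 1. Under other scalings Mrps22 missed the threshold with cyclic loess (0.62, limma adjusted p = 0.0534), and Mrps33 with the percentile shift (0.40, limma adjusted p = 0.159) and in the authors' table (1.89, limma adjusted p = 0.193). In Mrpl22, Mrps22 and Mrps33 no single probe passed, and in Mrps33 the silenced gap rests on 3 arrays because the spot of the 3′ probe on silenced array 4, an outlier by the scanner's flag for uneven features, was left out.

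The remaining 3 changed pairs set a bright probe of the RefSeq mRNA against a dim probe of an Ensembl transcript record. The dim probe of Mrps15, nearer the 5′ end and well above background on 4 control and 2 silenced arrays, fell by 1.20 (limma adjusted p = 0.0112), and the gap changed by 1.29 (limma adjusted p = 0.00121). The dim Mrps18a probe also lay nearer the 5′ end (chromosome 17, 46264387 to 46264446). It was well above background on all 4 control arrays and on none of the silenced ones. The size of its change is therefore not known. As measured, it was 2.22-fold higher in controls under the scaling used here (limma adjusted p = 0.0092, and 0.004 for the gap). The limma interval of this log2 change ran from -1.69 to -0.61. The measured difference was 1.75-fold to 1.79-fold under 4 other scalings and 1.4-fold with normexp. Mrpl48 ran the other way. Its dim record probe, nearer the 3′ end, was well above background on 4 control arrays but on only 1 silenced array. As measured, it fell by 1.41 (limma adjusted p = 0.00827), and the gap changed by -1.47 (limma adjusted p = 0.000713). The size of these gaps depended on the background correction. With normexp the gap changed by 0.74 in Mrps15 and by -0.76 in Mrpl48, the measured gap change of Mrps18a went from 1.03 to 0.43, and all 3 pairs passed (limma adjusted p from 0.00466 to 0.0269).

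**Figure D5:**
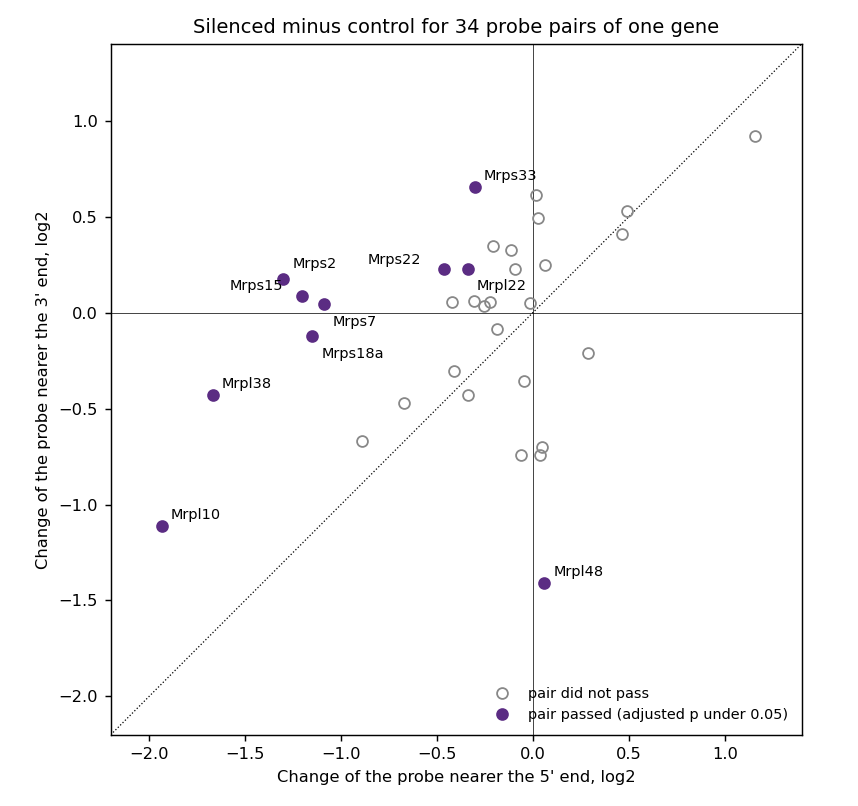
Change (silenced minus control, log2) of the probe nearer the 5′ end (horizontal axis) and of the probe nearer the 3′ end (vertical axis) for the 34 member probe pairs; filled points passed the test of the gap and the dotted line marks equal change. Of the 10 filled points 9 lie above the line and Mrpl48 lies below it. The 5′ probe of Mrps18a was not well above background in silenced cells, so its point shows a measured difference and not a size.

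A like contrast was seen between probes with and without the letters of a polyadenylation signal (AATAAA or ATTAAA). Over all tested probes the median change was 0.17 for 4265 with them and -0.26 for 24384 without. Among members it was 0.12 for 32 with and -0.07 for 78 without. Whether RNA integrity or labelling moved with the groups was not tested.

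Other genes of mitochondrial gene expression, for translation, ribosome assembly, RNA handling, transcription and DNA copying, were taken from a list of 52, of which 1, Mrp63, is itself the member Mrpl57 and was left out of these counts. Of the 50 others that were tested, 3 rose by the call used above (Mtif2, Mrm1 and Ngrn), 8 fell, and the median change was 0.07. These shares of 6.0% and 16.0% lie near the 6.02% and 14.0% of all genes, so the counts do not set the list apart, and its called genes are given as single values. Mtif2, the initiation factor that brings the first tRNA to the small subunit, had the largest rise, 12.31 ± 0.54 to 13.93 ± 0.37 (SD, n = 4; change 1.62, SE 0.30, limma adjusted p = 0.00552). Mrm1, which methylates the large rRNA, rose by 1.12 (SE 0.27, limma adjusted p = 0.0158). Ngrn, a factor for the large rRNA, rose by 0.93 (SE 0.24, limma adjusted p = 0.0219).

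Of the 8 single genes that fell, those for rRNA and ribosome assembly were Nsun4, an rRNA methyltransferase (-0.96), Eral1, a chaperone of the small rRNA (-0.71), Mterf3 (-0.70), Fastkd2 (-0.74) and Mrm2, another rRNA methyltransferase, listed on the array as Ftsj2 (-1.32, well above background on 1 silenced array). For RNA turnover and DNA copying they were Pnpt1, a polynucleotide phosphorylase (-0.65), Polg, the catalytic subunit of the mitochondrial DNA polymerase (-1.02), and the helicase Twnk, listed as Peo1 (-0.93). Their limma adjusted p-values ran from 0.0133 for Mrm2 to 0.0463 for Fastkd2.

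The list holds 7 ribosomal proteins with other names, and none of them passed, where 20.0% of all genes did. Dap3 changed by -0.06, Ptcd3 by -0.44, Chchd1 by 0.10 and Aurkaip1 by 0.43 on the log2 scale, all 4 of them small subunit proteins. Of the large subunit, Gadd45gip1 changed by -0.28, Ict1, which also releases stalled chains, by 0.30 and Mrp63 by 0.19. The groups did not overlap for Ptcd3, lower, and Ict1, higher (limma adjusted p = 0.141 and 0.255). Of all genes, 18.9% were lower and 7.12% higher without overlap.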

How the data were processed

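RNA of 8 cultures was labelled with Cy3 and hybridised to 1 slide of Agilent mouse arrays. The scanner files that the authors deposited give the linear intensity of each spot, background subtracted by Feature Extraction (12.0.0.7 per the file headers, 10.7.3.1 in the submitters' processing notes), and flags of 0 or 1 for spots above background and outliers. The authors also deposited a table of normalized intensity values, used as an alternative. Following the study's methods, spots not positive and significant were set to missing, log2 values of the deposited intensity were quantile normalized and spots of 1 probe averaged. Control and outlier spots were left out.

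Probes with at least 3 of 4 values per group were tested across all genes with limma 3.58.1 in R 4.3.3 (lmFit, eBayes), two-sided, adjusted by Benjamini-Hochberg at 0.05. Gaps between the brightest and each other probe of a gene were fitted the same way. On simulated arrays with 200 changed probes the fit for silenced against control over 28649 probes recovered 65% of changes of 2 log2 and 9% of changes of 1 log2, with 5 false calls among 79, and over 9146 probe pairs 42% and 2%, with 2 false calls among 46. Simulated noise was independent between probes, and the 200 changed probes were far fewer than the 5269 called lower in the data. The recovery rates therefore do not describe the fit to the data. The number of arrays limits the precision.

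Named were members with a called brightest probe, the 3 brightest and the 3 dimmest, those whose probes differed in call or whose pair was called, those above background in 1 group only, those not tested, and from the list of mitochondrial gene expression the called genes and 7 ribosomal proteins with other names. The members and lists were chosen with earlier results of these data known. Probe coordinates are those of the files (mm9). Where a probe lies in the protein was planned but not analysed here, and its start in the mRNA, from the files, was used. Motifs were searched in RefSeq promoters (GRCm38.p6) with Python 3.11.15. Alternatives were 5 other scalings, 2 filters, 2 blocks, a t-test with unequal variances, 2 other ways to represent a gene, and leaving out arrays.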

Additional observations from a re-analysis of the deposited data

Results flagged for a closer look

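In 2 of 38 groups of 4 arrays examined, 1 array lay apart from the other three by more than Dixon's criterion, which chance exceeds in about 1 group of 20. The brightest probe of Mrpl12 had a log2 signal of 14.42 on silenced array 4 and of 14.68 to 14.72 on the other silenced arrays. That of Mrpl44 had 9.47 on control array 3 and 10.06 to 10.14 on the other controls.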

How the results depend on the processing

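As reported, large subunit genes called higher and lower numbered 2 and 4 and small subunit genes 0 and 1. In the same order (large higher, large lower, small higher, small lower) the counts that moved by over 1.5 times were as follows. Cyclic loess gave 16 large and 9 small genes higher. The shift to the 75th percentile gave 25 higher and 1 lower, then 13 higher and 0 lower. The authors' table gave 19 large and 9 small genes higher, and no masking 18 and 9, with 0 small genes lower. Normexp gave 2 small genes higher, and the stricter filter 2 small genes lower (26.6% of all genes called). A t-test with unequal variances, adjusted by Benjamini-Hochberg, gave 0 large genes higher and 2 lower (10.3% of all genes). The mean of all probes gave 1 large gene higher and 0 small genes lower (18.5%). Without silenced array 4 and control array 3 together, 9 large and 8 small genes were higher (38.6%). The slide row as a block gave 0, 1, 0 and 0. The replicate numbers did not pair the cultures (correlations of -0.02, 0.15, 0.20 and 0.06 between same-numbered deviations, and 2 of 4 best with their own number), and the replicate block gave 0, 1, 0 and 0, with 14.4% of all genes called. Both alternatives chosen after seeing the data used cyclic loess: with the row block it gave 5, 2, 4 and 0 (24.1% of all genes) and 6 probe pairs, and without silenced array 4 it gave 13 large and 8 small genes higher (33.5%).

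With 1 array left out, large genes higher ranged from 0 to 6 and lower from 1 to 3. Small genes higher ranged from 0 to 4 and lower from 0 to 1. The share of all genes called ran from 10.4% to 28.1% in these fits. Probe pairs ranged from 6 to 13, and the change of Pvt1 from -3.14 to -2.66. Changes that were small and uncalled turned sign. Mrps18a went to 0.052 with cyclic loess, 0.36 with the percentile shift, 0.023 in the authors' table, 0.042 without masking and 0.062 with cyclic loess and the row block, and Mrps33 to 0.22 with the percentile shift. With the mean of all probes Mrpl22 went to -0.054, Mrpl48 to -0.55, Mrps15 to -0.56, Mrps2 to -0.56, Mrps22 to -0.12, Mrps33 to 0.32 and Mrps7 to -0.52, and with the probe nearest the 3′ end Mrpl48 went to -1.41 and Mrps33 to 0.65. With the stricter filter Mrps7 went to -0.012. With 1 array left out, Mrps15 ranged from -0.0595 to 0.257, Mrps7 from -0.061 to 0.193 and Mrpl48 from -0.104 to 0.235. The cause of these shifts was not tested. Pvt1 was called lower in each fit that held its probe. Of the 110 tested member probes, 7 were not well above background on every array. Their standard errors ran from 0.24 (Mrps18a) to 0.76 (Mrpl44), while a Mrpl15 probe well above background on every array had 0.57.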
